A study of Schistosoma mansoni with 6 samples.

Results

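RNA splicing factors and RNA helicases of the blood fluke Schistosoma mansoni are described here in male worms 48 hours after gamma irradiation. The genes were chosen by their product names in the deposited table, not by their values. A gene was included if it had annotated exons and if its name held splicing, spliceosom, snRNP, small nuclear ribonucleoprotein, pre-mRNA, RNA helicase or DEAD box. Names that also held kinase, ubiquitin, zinc finger or translation initiation were left out. This gave 95 of the 10770 rows with exons. Grouped by name alone, they were 49 RNA helicases, 29 splicing factors, 14 proteins of small nuclear ribonucleoproteins and 3 other pre-mRNA factors. Of the 95, 92 had enough reads to be tested among 8885 genes.

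Most eukaryotic genes are transcribed with introns, which the spliceosome removes. Its core particles, the snRNPs, each hold a small nuclear RNA and particle-specific proteins, and most of them hold a ring of Sm proteins. RNA helicases use ATP to unwind or remodel RNA and RNA-protein contacts, and drive steps of splicing, ribosome assembly, translation and RNA decay. The largest family is named DEAD box after amino acids of its ATP-binding motif. In flatworms, schistosomes included, many mRNAs also receive a common spliced leader by trans-splicing, which uses much of the same machinery. Schistosomes keep dividing somatic stem cells, and radiation at such doses stops cell division.

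Both groups were adult males of strain NMRI taken from mice 43 days after infection. The irradiated group received 200 Gy from a cobalt source and the control group a mock exposure, and both were then kept for 48 hours in Basch Media 169. Head and testes were cut away, so that each of the 3 irradiated and 3 control libraries, lettered A, B and C within a group, holds RNA of a pool of posterior somatic tissue. Whether the 3 pools of a group go back to different infections is not stated in the labels. The tests therefore rest on how far these pools differ, which may be technical.

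The 3 irradiated libraries held 21594259 to 29641087 exon reads and the 3 control libraries 17577059 to 26858868. A gene at 0 reads could have up to 3 reads, or 0.101 to 0.171 CPM (reads scaled to library size), a limit that covers counting error only. Markers of the tissues left after dissection were present, with a summed level over 17 muscle genes of 7912 to 8360 CPM in irradiated and 8152 to 8424 CPM in control libraries. Of these, 2 were called lower, a paramyosin row, Smp_169970, with 0.481 ± 0.0914 CPM in irradiated and 5.44 ± 0.535 CPM in control worms, and a titin row, Smp_163920, with 92.8 ± 7.41 CPM in irradiated and 123 ± 5.78 CPM in control worms (SD, n = 3 each). The sum over 9 gut cathepsins was 9210 to 10291 CPM in irradiated and 10167 to 11002 CPM in control libraries. That over 24 tetraspanins, several of them surface proteins of the tegument, was 6879 to 7267 CPM in irradiated and 6345 to 6850 CPM in control libraries, and 1 of them was called higher. All 4 stem cell markers were called lower, with a sum of 29.6 to 37.9 CPM in irradiated and 111 to 116 CPM in control libraries. All 4 genes of dividing cells were called lower as well, at 3.75 to 3.93 CPM in irradiated and 50.8 to 52.6 CPM in control libraries. Over all tested genes, 2.49% were called lower and 0.619% higher. The marker lists were chosen with results of these data known, so these calls are not evidence. No stem cell marker was at 0 in either group, and the part of these cells in the results on splicing and helicase genes was not tested.

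Transcript levels of the splicing and helicase genes hardly differed between irradiated and control worms. With edgeR's quasi-likelihood test and an adjusted p under 0.05, 1 of the 92 genes was called lower, the DEAD box helicase Smp_166400, beside 2.49% of all tested genes called lower. None was called higher, beside 0.619% of all tested genes. At an unadjusted p under 0.05, 7 were lower and 2 were higher, a smaller share than the 21.6% of all tested genes. DESeq2 called 3 lower and 0 higher, beside 5.51% of all tested genes lower and 1.43% higher. The median log2 fold change, irradiated over control, was 0.00 for the 92 genes and 0.00 for all tested genes, and 46 of the 92 lay below 0 and 46 above. Upper-quartile scaling shifted genes upward alike, with a median of 0.03 for the 92 and 0.03 for all tested genes, of which 3649 then lay below 0 and 5236 above (4382 and 4503 otherwise). Counts below and above 0 therefore move with the scaling.

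The differences were narrow in range. Log2 fold changes of the 92 genes ran between -0.37 and 0.21, whereas those of all tested genes ran between -6.08 and 5.05. Such extremes widen with the number of genes and with low counts. The fewest exon reads of a gene were 288 among the 92 and 46 among all tested genes. Of the 92, 70 (76.1%) had a log2 fold change under 0.1 in size, against 54.0% of all tested genes, and 90 (97.8%) one under 0.2, against 79.2%. For 87 genes (94.6%) the whole 95% interval of the fold change lay within 1.25-fold in either direction, which held for 63.4% of all tested genes. For all 92 it lay within 1.5-fold, against 85.0% of all tested genes. These genes were also well covered. Their median level was 45.2 RPKM (reads scaled by the authors to exon length and library size), against 23.5 RPKM over all tested genes, and 67 of the 92 lay above that median. The median standard error of the log2 fold change was 0.05 for the 92 and 0.07 for all tested genes.

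The 3 irradiated values lay wholly apart from the 3 control values for 22 of the 92 genes. Irradiated values were all lower for 15, beside 13.3% of all tested genes, and all higher for 7, beside 12.0%. The share over both directions was 23.9% of the 92 and 25.3% of all tested genes. The 95 genes took 1.09%, 1.09% and 1.10% of exon reads in the irradiated libraries and 1.11%, 1.13% and 1.10% in the control libraries. The lowest control share was above the highest irradiated share. The mean share was 1.09% ± 0.00289 in irradiated and 1.11% ± 0.0169 in control libraries (SD, n = 3 each), and the exact two-sided permutation test gave p = 0.1, the smallest that 3 against 3 libraries allow.

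**Figure D1:**
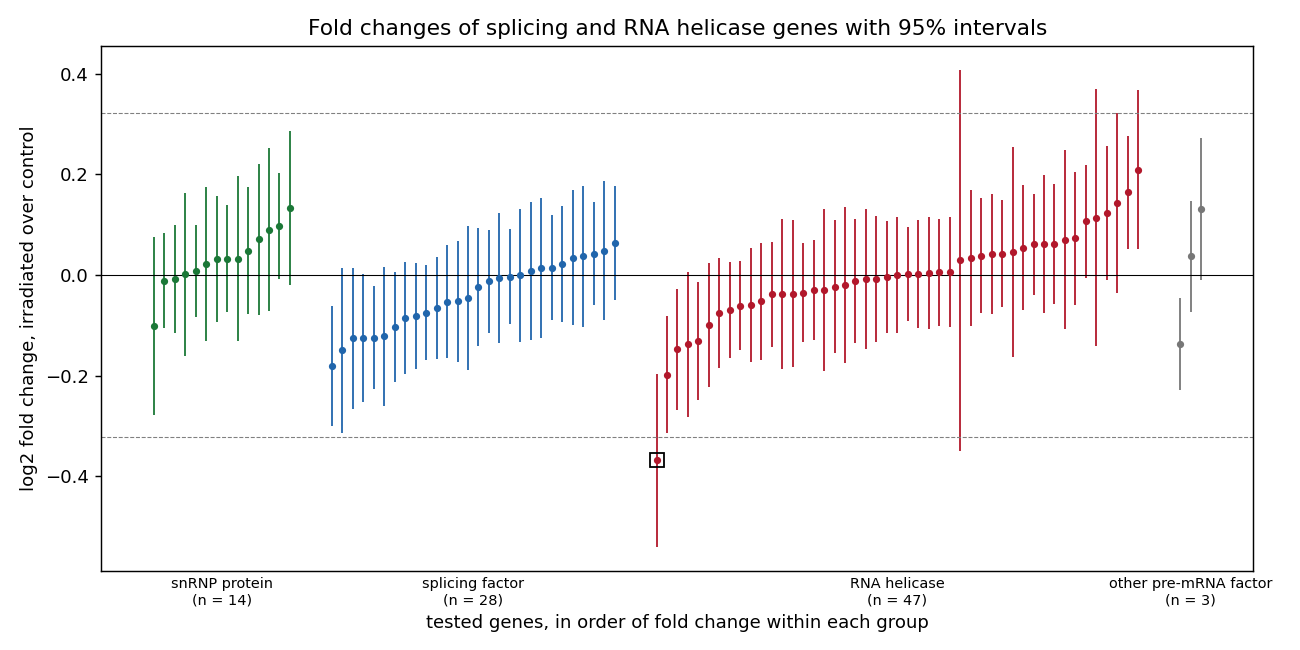
Log2 fold change (vertical axis, irradiated over control) of the 92 tested genes with 95% intervals, in 4 groups by product name and in order of fold change within each group. Dashed lines mark 1.25-fold in either direction, and the square marks Smp_166400 at -0.37, whose interval reaches -0.54; no other point lies beyond 0.21 in size.

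Among the 14 genes with snRNP names, 11 had a log2 fold change above 0 and 3 below, and none passed the test. The median was 0.03 and the range -0.10 to 0.13, the DESeq2 count was 0 in both directions, and at an unadjusted p under 0.05 the count was 0 as well. With upper-quartile scaling 13 lay above 0, and the median was 0.06 beside 0.03 for all tested genes. Prp8, SF3b and Prp39, described below, are also parts of snRNPs in other species but are counted in other groups by name. Their rows had log2 fold changes of -0.18 and -0.13 (Prp8), -0.12, -0.12 and 0.01 (SF3b) and -0.14 (related to Prp39). The split above and below 0 in each group therefore depends on the naming. The most abundant of the 14 was an Sm protein of type F, Smp_060910, part of the ring that most small nuclear RNAs carry. It had 108, 98.4 and 107 CPM in irradiated libraries A, B and C, and 107, 97.7 and 102 CPM in control libraries A, B and C. The groups overlapped, and library B was the lowest of each. The log2 fold change was 0.03 with a 95% interval of -0.09 to 0.16 (edgeR, adjusted p = 0.783).

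Next in level came Sm D2, Smp_075560, with 114, 103 and 115 CPM in irradiated and 111, 104 and 106 CPM in control libraries A, B and C. Its groups overlapped too, irradiated library B being the lowest of the 6. This gave a log2 fold change of 0.05, with a 95% interval of -0.08 to 0.17 (edgeR, adjusted p = 0.647). Per length these were among the higher levels of the group, at 233 ± 13.2 RPKM in irradiated and 224 ± 15.4 RPKM in control worms for Smp_060910, and 196 ± 13.6 RPKM in irradiated and 186 ± 10.01 RPKM in control worms for Sm D2 (SD, n = 3 each).

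Among these, 7 names are of Sm-type proteins (D2, D3, G, F in 2 rows, an Sm protein with no letter, and a snRNP-associated protein). All 7 log2 fold changes lay above 0 (with RLE and upper-quartile scaling too), between 0.00 and 0.10 with the scaling used here, and none passed the test. All 7 are among the 31 shortest of the 92 genes, of which 23 lay above 0 and 8 below. The part of length was not tested. Irradiated library B was the lowest irradiated library for each of the 7, so they are not independent. The highest log2 fold change of the 7 was that of the snRNP-associated protein Smp_026770. It had 141, 137 and 139 CPM in irradiated and 135, 130.1 and 124 CPM in control libraries A, B and C. All irradiated values were above all control values. It was the only gene with a snRNP name without overlap, a share of 7.14% of the 14 beside 25.3% of all tested genes. Its log2 fold change of 0.10 had a 95% interval of -0.01 to 0.20 (edgeR, adjusted p = 0.259).

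The particle-specific proteins lay on both sides of 0. The U1 protein Smp_013360, which binds the U1 RNA that first recognises the 5′ splice site, averaged 75.2 ± 3.81 CPM in irradiated and 80.6 ± 8.95 CPM in control worms (SD, n = 3 each), the lowest log2 fold change of the group at -0.10. The 2 rows named for the U1 A and U2 B proteins, Smp_069870 and Smp_069880, are neighbours in the RefSeq annotation and had log2 fold changes of 0.03 and 0.13. The U5 component Smp_096450, whose human counterpart is a GTPase that acts when the spliceosome is activated and taken apart, averaged 243 ± 4.13 CPM in irradiated and 245 ± 5.91 CPM in control worms. Its 95% interval for the log2 fold change, -0.10 to 0.08, was one of the narrowest of the group. Also in this group by its name, the small subunit of the U2 auxiliary factor, Smp_093100, which in human cells reads the AG at the 3′ end of the intron, averaged 131 ± 1.84 CPM in irradiated and 131 ± 0.779 CPM in control worms.

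Of the genes grouped by name as splicing factors, 19 of 28 tested had a log2 fold change below 0 and 9 above. The median was -0.03 and the range -0.18 to 0.06. None was called by edgeR, and DESeq2 called 1 lower. At an unadjusted p under 0.05, 2 were lower and 0 higher. With upper-quartile scaling the split was 14 below and 14 above and the median -0.01, beside 0.03 for all tested genes. Irradiated values lay wholly below the control values for 8 of the 28, beside 13.3% of all tested genes, and wholly above for 0, beside 12.0%.

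The lowest of these was Prp8, Smp_140890, the U5 protein that sits at the centre of the spliceosome and contacts both splice sites. It had 489, 549 and 513 CPM in irradiated and 569.6, 596 and 591 CPM in control libraries A, B and C. Every irradiated value was below every control value, and irradiated library A was the lowest of the 6. The log2 fold change was -0.18 (SE 0.05, 95% interval -0.30 to -0.06), which missed the threshold in edgeR (adjusted p = 0.0992) and passed it in DESeq2 (adjusted p = 0.0328). A second row with this name, Smp_192410, has an exon length of 561 bases where Smp_140890 has 6291. It averaged 55.2 ± 1.64 CPM in irradiated and 60.04 ± 4.53 CPM in control worms (SD, n = 3 each), and its groups overlapped through control library C at 54.9 CPM. This is a log2 fold change of -0.13 (edgeR, adjusted p = 0.275).

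The SF3b complex belongs to the U2 snRNP and holds the branch site of the intron. Of its 3 rows, subunit 1, Smp_141630, averaged 306 ± 9.63 CPM in irradiated and 333 ± 22.3 CPM in control worms, with a log2 fold change of -0.12 (edgeR, adjusted p = 0.235). Subunit 3, Smp_137430, a row named as a 5′ fragment, had a log2 fold change of -0.12 as well, with no overlap between groups (edgeR, adjusted p = 0.157). Subunit 4, Smp_067420, averaged 32.01 ± 1.73 CPM in irradiated and 31.9 ± 0.813 CPM in control worms, with a log2 fold change of 0.01. None of the 3 passed the test. The large subunit of the U2 auxiliary factor, Smp_019690, which binds the pyrimidine tract before the 3′ splice site, averaged 292 ± 4.91 CPM in irradiated and 307 ± 7.06 CPM in control worms (SD, n = 3 each). Its groups did not overlap, and the log2 fold change was -0.07 with a 95% interval of -0.17 to 0.02 (edgeR, adjusted p = 0.331).

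Factors known from yeast for later steps had small differences as well. Smp_019190, named for Slu7, which in yeast acts in the second catalytic step, averaged 78.7 ± 3.08 CPM in irradiated and 81.7 ± 3.79 CPM in control worms. Smp_148230, named for the yeast scaffold protein CLF1, averaged 72.4 ± 5.28 CPM in irradiated and 74.8 ± 3.58 CPM in control worms. The 3 rows with CWC names, proteins first found in a yeast complex around Cef1, had log2 fold changes of -0.12 for Smp_077590, 0.02 for Smp_041730 and 0.05 for Smp_105180. Only Smp_077590, named CWC26, had no overlap, at 28.8 ± 0.711 CPM in irradiated and 31.4 ± 1.64 CPM in control worms (edgeR, adjusted p = 0.282).

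The SR family, whose proteins bind exons and help define splice sites, held the most abundant of the 95 genes. Of 11 rows with arginine/serine-rich names 10 were tested, 6 below 0 and 4 above, with a median of -0.01 and a range of -0.15 to 0.06, and none passed the test. This was Smp_036270, at 345 ± 4.12 RPKM in irradiated and 340 ± 7.07 RPKM in control worms (SD, n = 3 each). It had 643, 634 and 623 CPM in irradiated and 635, 639 and 630.1 CPM in control libraries A, B and C. These values overlapped, and the log2 fold change was -0.00 with a 95% interval of -0.10 to 0.09 (edgeR, adjusted p = 0.976).

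Second in level among the SR genes was Smp_185230, at 206 ± 18.1 RPKM in irradiated and 201 ± 10.05 RPKM in control worms (SD, n = 3 each). It had 151, 136 and 159 CPM in irradiated and 152, 146 and 143 CPM in control libraries A, B and C. Irradiated libraries C and B were the highest and the lowest of the 6. The log2 fold change was 0.01, with a 95% interval of -0.13 to 0.15 (edgeR, adjusted p = 0.921).

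**Figure D2:**
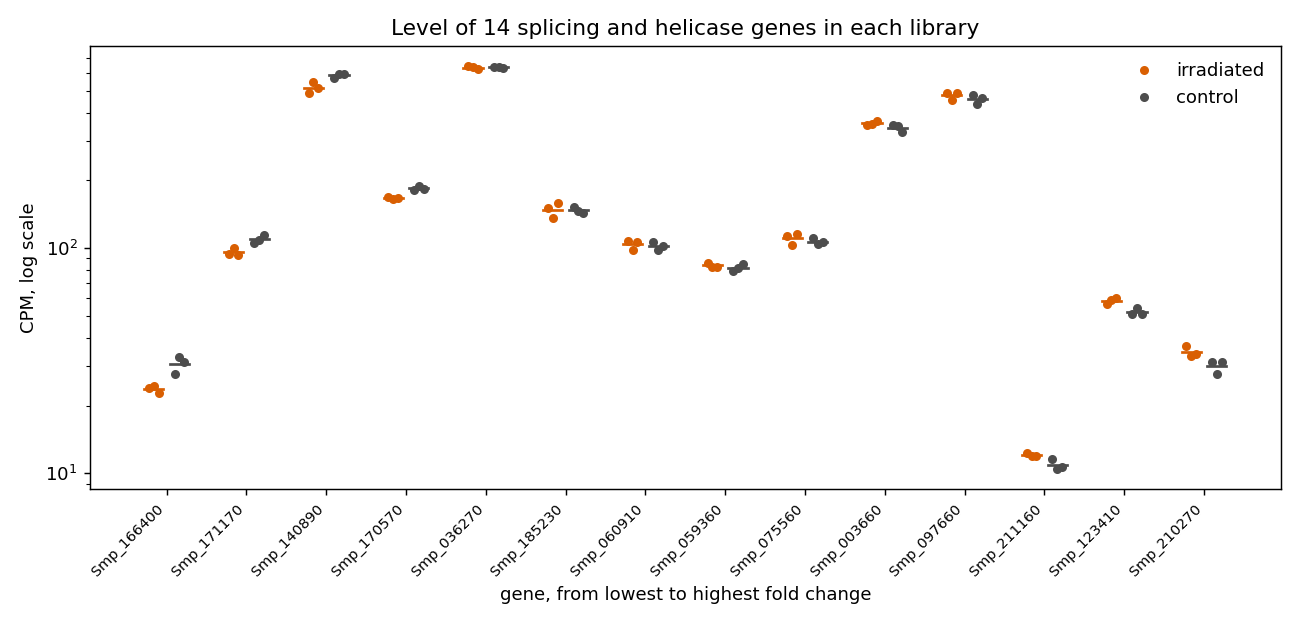
CPM on a log scale (vertical axis) of 14 splicing and helicase genes in each library, orange for the 3 irradiated and grey for the 3 control libraries, with a bar at each mean. CPM is not divided by length, so genes are not compared in level; the groups of Smp_166400, at 22.8 to 24.5 CPM in irradiated and 27.7 to 33.0 CPM in control libraries, stand apart, and those of Smp_036270 overlap.

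RNA helicases showed the widest range. Of 47 tested, 23 had a log2 fold change below 0 and 24 above, with a median of 0.00 and a range of -0.37 to 0.21. Irradiated values lay wholly below control values for 6 and wholly above for 6, a share of 25.5% over both directions that was close to the 25.3% of all tested genes. With upper-quartile scaling the median was 0.03, as for all tested genes. The 36 tested genes with DEAD in their name had a median of 0.00. The 11 named only as ATP-dependent RNA helicases had a median of -0.04, with 8 below 0.

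The single call was the DEAD box helicase Smp_166400, which the files annotate with 4 exons and an exon length of 1029 bases and no further name. It had 23.9, 24.5 and 22.8 CPM in irradiated and 27.7, 33.0 and 31.2 CPM in control libraries A, B and C. All irradiated values were below all control values, and control library A was the control nearest to them. It fell 1.29-fold, a log2 fold change of -0.37 (SE 0.08, 95% interval -0.54 to -0.20; edgeR, adjusted p = 0.0372). In RPKM it averaged 20.0 ± 0.549 in irradiated and 25.3 ± 1.66 in control worms (SD, n = 3 each). In bulk tissue, fewer cells that express a gene and less of its RNA per cell cannot be told apart. The call was lost without irradiated library A (adjusted p = 0.122) or C (0.147), without control library B (0.146) or C (0.15), with a minimum of 5 CPM in 3 libraries (0.0556), with gene reads that include introns (0.058) and with exon-exon reads (0.0765), all in edgeR. Calls over all genes were fewer in those settings too, against 221 lower otherwise. They were 119 to 127 lower with 1 of those libraries left out. They were 77 lower with the 5 CPM minimum, 170 with gene reads and 182 with exon-exon reads. The log2 fold change of Smp_166400 stayed between -0.44 and -0.31 in all 17 alternatives, 10 of which called it.

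The next lowest helicase was Smp_171170, of the DEAD box family as well. It had 93.9, 100.2 and 92.9 CPM in irradiated and 106, 109 and 115 CPM in control libraries A, B and C. No irradiated value reached the control values. Its log2 fold change was -0.20 (SE 0.05), which missed the threshold in edgeR (adjusted p = 0.0739) and passed it in DESeq2 (adjusted p = 0.0385).

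At the other end, 3 helicases had the highest log2 fold changes of the 95 genes, and none passed the test. The highest was that of Smp_210270, with 36.7, 33.3 and 34.0 CPM in irradiated and 31.3, 27.6 and 31.2 CPM in control libraries A, B and C. The groups did not overlap, and the log2 fold change was 0.21 (SE 0.07; edgeR, adjusted p = 0.133). Only 51.3% of its exon reads were unique to it, so a near-identical copy may share them, and on unique reads its log2 fold change was 0.19 (edgeR, adjusted p = 0.19). Its neighbour in the RefSeq annotation, the DEAD box helicase Smp_210260, had a log2 fold change of 0.00.

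Smp_123410 had 56.7, 58.6 and 59.8 CPM in irradiated and 51.2, 54.1 and 50.8 CPM in control libraries A, B and C. All irradiated values were above all control values. Its log2 fold change was 0.16 (SE 0.05, 95% interval 0.05 to 0.28; edgeR, adjusted p = 0.108). Smp_211160, with a level of 4.52 ± 0.0872 RPKM in irradiated and 4.02 ± 0.312 RPKM in control worms (SD, n = 3 each), had 12.3, 11.9 and 11.9 CPM in irradiated and 11.6, 10.5 and 10.7 CPM in control libraries A, B and C. Its groups stood apart by less than the control range. The log2 fold change was 0.14, with a 95% interval of -0.04 to 0.32 (edgeR, adjusted p = 0.328). It was 0.02 on gene reads, introns included, and 0.24 on exon-exon reads.

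The most abundant helicase was Smp_097660, at 280.1 ± 13.8 RPKM in irradiated and 264 ± 18.8 RPKM in control worms (SD, n = 3 each). It had 490.4, 456 and 491 CPM in irradiated and 479, 435 and 462 CPM in control libraries A, B and C. The groups overlapped, with library B the lowest of each. This gave a log2 fold change of 0.06, with a 95% interval of -0.06 to 0.18 (edgeR, adjusted p = 0.529). Smp_003660, at 131 ± 3.47 RPKM in irradiated and 123 ± 5.16 RPKM in control worms, had 353, 356 and 366 CPM in irradiated and 351, 349.5 and 329 CPM in control libraries A, B and C. Its groups stood just apart, and the log2 fold change was 0.06 with a 95% interval of -0.04 to 0.16 (edgeR, adjusted p = 0.457).

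The deposited table attaches gene ontology terms that point to what the helicases may do, and these groups did not stand apart. The 31 tested helicases with a term for ribosome biogenesis had a median log2 fold change of 0.01, with 12 below 0 and 19 above. The 24 with a term for nonsense-mediated decay had a median of 0.00, with 10 below and 14 above. Both groups hold Smp_166400, the only edgeR call in either, beside 2.49% of all tested genes called lower. DESeq2 called 2 lower in each, beside 5.51% of all tested genes. Of all 95 genes, 16 carried a term for the spliceosomal complex, with a median of -0.02, and 22 one for RNA splicing, with a median of 0.01.

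Smp_170570, a protein related to Prp39, which in yeast is part of the U1 snRNP, is one of the 3 remaining pre-mRNA factors. It had 169, 166 and 167 CPM in irradiated and 181, 188 and 183 CPM in control libraries A, B and C. All irradiated values were below all control values, and the irradiated libraries differed by less than 3 CPM. The log2 fold change was -0.14 (SE 0.04; edgeR, adjusted p = 0.0992), which did not pass the test. Smp_059360, named only as a pre-mRNA processing factor, had 86.3, 82.9 and 82.4 CPM in irradiated and 78.9, 81.4 and 85.2 CPM in control libraries A, B and C. Values overlapped, and the log2 fold change was 0.04 (edgeR, adjusted p = 0.697). The subunit of cleavage factor Im that helps choose polyadenylation sites, Smp_002190, averaged 36.6 ± 1.52 CPM in irradiated and 33.3 ± 1.86 CPM in control worms (SD, n = 3 each). This is a log2 fold change of 0.13 with a 95% interval of -0.01 to 0.27 (edgeR, adjusted p = 0.257).

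The other 3 of the 95 genes were not tested. Smp_190120, a DEAD box row of 213 bases, had 2 exon reads in all, and Smp_084690, a DEAD box row of 33 bases, had 0. The SR row Smp_132990 had 0 exon reads as well, but it had gene reads, 100% of them outside exons. In exon reads, all 3 are within the limit that a count of 0 allows. With gene reads, introns included, 93 of the 95 genes were tested. The lowest log2 fold change was then -0.77, and 0 genes were called lower or higher.

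The wider mRNA processing pathway was followed in 45 further genes, chosen by names such as hnRNP, polyadenylation, cleavage stimulation, cap binding, debranching, export and muscleblind. Of the 40 tested, edgeR called 0 lower and 0 higher and DESeq2 called 0 in both directions. At an unadjusted p under 0.05, 6 were lower and 2 higher, beside 21.6% of all tested genes in either direction. The median log2 fold change was -0.03, with 28 below 0 and 12 above. With upper-quartile scaling the split was 20 and 20 and the median -0.00, beside 0.03 for all tested genes. Groups did not overlap for 5 lower and 3 higher genes, a share of 20.0% beside 25.3% of all tested genes. The lowest value was that of the cytoplasmic polyadenylation element binding protein Smp_012950, at 16.2 ± 3.00 CPM in irradiated and 21.1 ± 1.79 CPM in control worms (SD, n = 3 each), with a log2 fold change of -0.38 (edgeR, adjusted p = 0.126). Among the highest was the lariat debranching enzyme Smp_007190, which opens the intron lariat after splicing. It averaged 86.7 ± 3.30 CPM in irradiated and 78.6 ± 1.25 CPM in control worms (SD, n = 3 each), with a log2 fold change of 0.14 (edgeR, adjusted p = 0.134). The splicing regulator muscleblind-like protein, Smp_039810, averaged 148 ± 13.5 CPM in irradiated and 170 ± 5.73 CPM in control worms, with a log2 fold change of -0.20 (edgeR, adjusted p = 0.131).

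**Figure D3:**
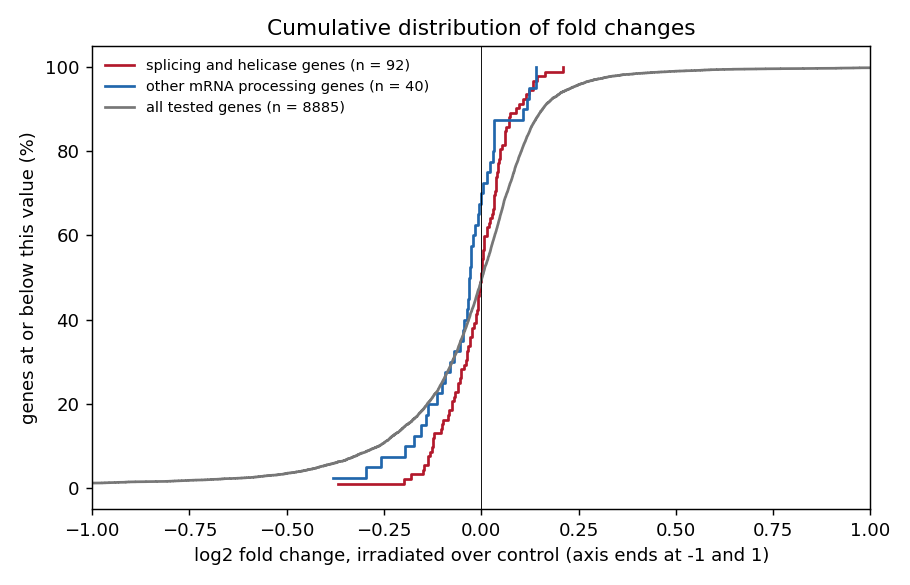
Cumulative share of genes (vertical axis, %) by log2 fold change, irradiated over control (horizontal axis, drawn between -1 and 1), for the 92 splicing and helicase genes, 40 other mRNA processing genes and all 8885 tested genes. The first curve is steeper than that of all genes around 0, with 97.8% of its genes under 0.2 in size, against 79.2% of all.

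Fold changes went with exon length. Across the 92 genes, Spearman's rho between log2 fold change and exon length was -0.43, and across all 8885 tested genes it was -0.28. These are descriptions across genes, which share libraries and are not independent. The 31 genes with the shortest exon length, 318 to 1164 bases, had a median log2 fold change of 0.03, with 8 below 0 and 23 above. The 30 of middle length, 1232 to 2256 bases, had a median of -0.00, with 16 below 0 and 14 above. The 31 longest, 2288 to 6291 bases, had a median of -0.05, with 22 below 0 and 9 above. With upper-quartile scaling the medians were 0.06, 0.03 and -0.02 from the shortest to the longest genes, beside 0.03 for all tested genes. The role groups differ in length too. The median exon length was 682 bases for the 14 snRNP proteins, 1350 bases for the 28 splicing factors and 2256 bases for the 47 helicases. The part of exon length in the medians of these groups was not tested. Spearman's rho between log2 fold change and level in RPKM was 0.038 across the 92 genes and 0.23 across all tested genes.

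**Figure D4:**
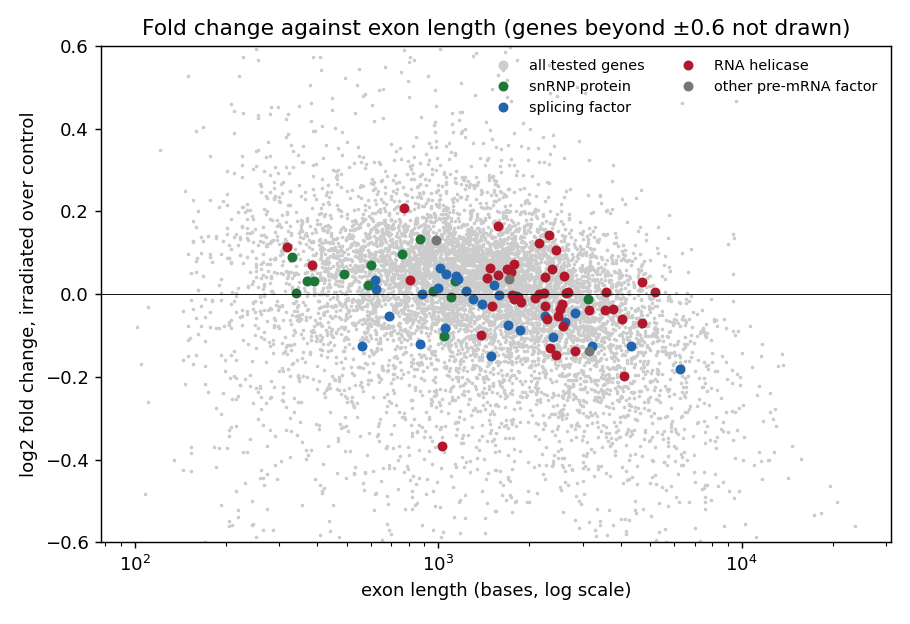
Log2 fold change (vertical axis, irradiated over control) against exon length in bases (horizontal axis, log scale) for the 92 splicing and helicase genes by group and, in light grey, all tested genes within 0.6 in size. Coloured points lie mostly above 0 at the short end, with a median of 0.03 over the 31 shortest genes, and mostly below 0 at the long end, with a median of -0.05.

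The table also counts reads that fall inside a gene but outside its exons, as in introns. The median share of gene reads outside exons was 7.78% over the tested splicing and helicase genes and 12.2% over all tested genes. Summed over the 95 genes, however, it was 25.6%, 23.9% and 24.2% in irradiated and 15.7%, 27.6% and 26.0% in control libraries A, B and C. Nearly all of the excess lay in the DEAD box helicase Smp_131770, and without it the shares were 9.06%, 9.62% and 8.75% in irradiated and 9.11%, 11.1% and 9.35% in control libraries A, B and C. Summed over all genes they were 12.1%, 13.0% and 11.7% in irradiated and 12.3%, 16.1% and 13.1% in control libraries A, B and C. Control library B was the highest there too. Smp_131770 held 327135 reads outside its exons and 15129 in them, which ranked 3 among all genes by reads outside exons. Only 71 of its reads crossed a border between intron and exon.

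Scaled to 1000000 gene reads, Smp_131770 had 2358, 1976 and 2163 reads outside exons in irradiated and 838, 2443 and 2381 in control libraries A, B and C. Control library A was far below the other 5, which lay close together, and the groups overlapped. In exon reads the gene had 107, 106 and 106 CPM in irradiated and 108, 105 and 106 CPM in control libraries A, B and C, so control library A did not stand apart there. The log2 fold change was 0.00 on exon reads (edgeR, adjusted p = 0.984) and 0.20 on gene reads (SE 0.30; edgeR, adjusted p = 0.724). No label says that the library kit keeps strand, and reads of another gene inside its introns cannot be told apart from its own. Reads that span 2 exons made up 32.3%, 32.2% and 32.5% of the exon reads of the 95 genes in irradiated and 32.4%, 31.9% and 32.9% in control libraries A, B and C, and these ranges overlapped.

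**Figure D5:**
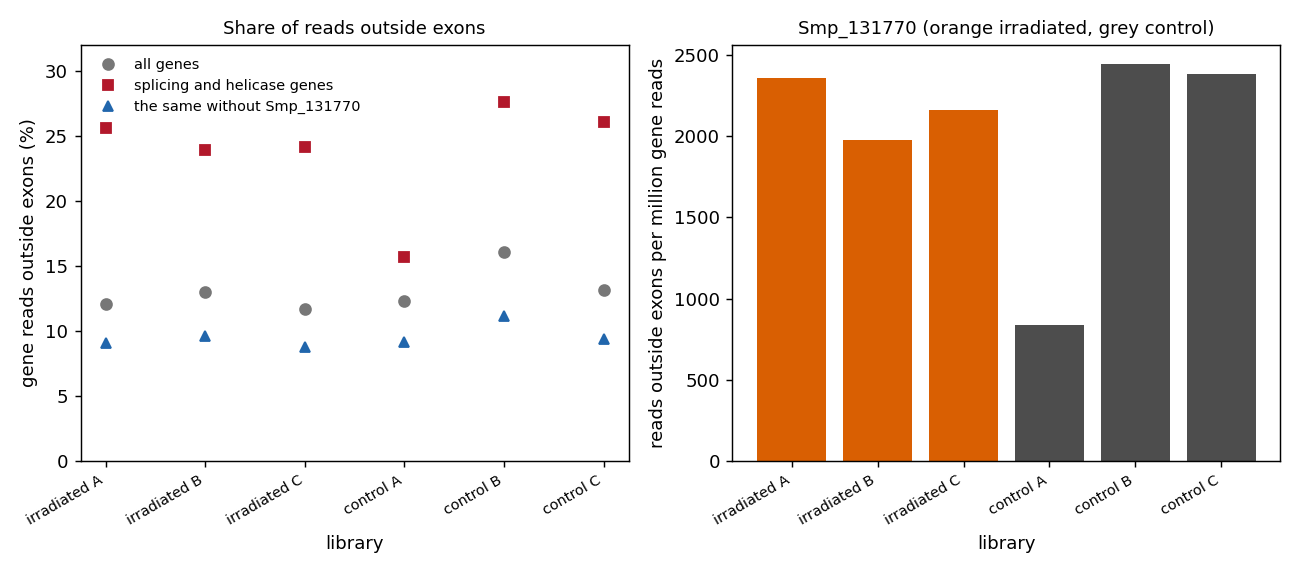
Left, share of gene reads outside exons (%) in each library for all genes, the splicing and helicase genes, and the same without Smp_131770. Right, reads of Smp_131770 outside exons, scaled to 1000000 gene reads, orange for irradiated and grey for control; control library A, at 838, lies below the other 5 libraries, at 1976 to 2443.

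For 84 of the 95 genes over 99% of exon reads were unique to the gene. Shared reads touched 7 tested genes, for which under 95% were unique. The lowest was the DEAD box helicase Smp_211330 at 32.2%, whose log2 fold change was -0.10 on all exon reads and -0.07 on unique ones. The SR gene Smp_086600, at 56.5% unique, had 0.04 on both. None of the 7 was called on either kind of read.

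In the authors' deposited table, 8 of the 95 genes (8.42%) were lower and 4 (4.21%) higher at their unadjusted P under 0.05. Over all rows with exons, 6.73% were lower and 6.64% higher. These shares are not over like sets. Enough reads to be tested here were held by 92 of the 95 genes, but by only 8885 of the 10770 rows with exons. The authors' deposited table gave Smp_166400 a fold of -1.27, lower in irradiated worms, with P = 0.00601. No fold of 2 or more was listed for any of the 95 genes in the authors' deposited table, beside 403 of 10770 rows with exons. For Smp_190120 no fold was listed.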

How the data were processed

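Per the file headers, the deposited table holds counts of exon, gene, exon-exon and unique reads for every gene and library, the authors' RPKM values, and the authors' fold and unadjusted p-value. TruSeq libraries were sequenced in a single lane, per the labels' protocols. Aligner, build and annotation release: not given in the sources used here. Total exon reads of 10770 rows with exons (of 13305) were tested in R 4.3.3 with edgeR 4.0.16: filterByExpr, TMM scaling, quasi-likelihood F test, Benjamini-Hochberg adjustment over 8885 genes, called under 0.05. CPM is TMM-scaled. Each standard error is the log2 fold change over the root of F, and 95% intervals use t quantiles. The code was tested on simulated data. DESeq2 1.42.0 and limma 3.58.1 on log2(RPKM + 0.5) served as alternatives, with other scalings, filters, read kinds, a replicate block and each library left out.

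The genes, lists and markers were chosen with earlier results of these data known. Named by rule were called genes, the 3 lowest and 3 highest fold changes, the 2 most abundant genes of each role group, calls by DESeq2 alone and the untested genes with most reads. Further genes were named for their protein after their values were seen. Product names are those of the file. RefSeq's ASM23792v2 table, which matched 78 of the 95 genes, gave neighbours only. Protein sequence features were not used here.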

Additional observations from a re-analysis of the deposited data

How the results depend on the processing

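Of the 95 genes, 1 was called lower and 0 higher. The number called lower was 0 with at least 5 CPM in 3 libraries, 0 with gene reads, 0 with exon-exon reads and 3 with DESeq2, which added Smp_171170 and Smp_140890. In that order, 77, 170, 182 and 490 of all tested genes were called lower, against 221 otherwise. The labels do not say whether the replicate letters pair the libraries. Deviations of same-lettered libraries correlated at 0.087, 0.22 and -0.10 for A, B and C. Irradiated A and B correlated best with the control of their own letter, and irradiated C with control A at 0.21. Whether the letters pair pools is therefore not settled. With the replicate block, 3 were called lower and 2 higher (Smp_123410 and Smp_210270), and 5 of the other mRNA processing genes were called lower, while calls over all genes went to 851 lower and 277 higher, against 221 and 55. Leaving out 1 library at a time gave 0 to 4 called lower. The count was 0 without irradiated A, irradiated C, control B or control C, when all-gene calls were 119 to 127 lower and 16 to 33 higher. It was 1 without control A, when all-gene calls were 359 lower and 125 higher. It was 4 without irradiated B, when all-gene calls were 723 lower and 129 higher. Leaving out 1 library also gave 23 to 37 genes without overlap, against 22 (37 without irradiated B, 35 without control A). Groups of 2 and 3 libraries separate more easily than 3 and 3, and shares over all tested genes are not given for these settings. The other mRNA processing genes called lower were 0 to 4 (4 without irradiated B), and the medians of the splicing and helicase genes were -0.016 to 0.00993. The median log2 fold change of 0.00 became 0.0285 with upper-quartile scaling, 0.0235 and 0.0239 with limma at pseudocounts of 0.5 and 0.1, and 0.0156 with gene reads. The median over all tested genes moved alike with the first 3, to 0.0306, 0.0266 and 0.0276, and was 0.00139 with gene reads. The cause of the other changes was not tested. At least 5 CPM was tried with 7570 genes tested. With 3 libraries a group, and 288 to 90307 exon reads per tested gene, the spread between libraries limits the smallest difference that can be called. Counts without overlap were not recomputed for DESeq2 and the block.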
